A study of Mus musculus with 16 samples.

Results

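The genes described here are Fn1, Postn, Comp, Sparcl1, Mia, Serpine2, Fgfr1, Igfbp2 and Hspb1, 9 of the 32285 genes in the count files. They are genes of matrix proteins and of proteins tied to metastasis, and they were chosen by their UMI levels in 2208L tumor cells, which were lower in mice given IACS-70654 than in mice given vehicle. That contrast is therefore given as a description, with no test. The study had itself picked out 6 of them (Fn1, Hspb1, Postn, Mia, Fgfr1 and Serpine2) on these same libraries, so that the direction in that contrast is not independent evidence. 2208L is a transplantable Trp53-null mammary tumor of BALB/c mice, used as a model of triple-negative breast cancer (TNBC), and pieces of it were grown in the mammary fat pad of WT BALB/c hosts with an intact immune system. IACS-70654 inhibits the bromodomain of the coactivators CBP and P300. Tumor-bearing mice received vehicle, IACS-70654, an anti-PD1 antibody, or IACS-70654 and anti-PD1 together (combination), and live cells of each condition gave 1 library of single-cell RNA. The series record gives 7 days of vehicle or IACS-70654, with 3 days on and 2 days off, and cells pooled from 3 mice, for tumors and marrow alike. The study's own text gives a shorter course for the marrow, and how long the anti-PD1 and combination mice were treated is not given by the labels. There are thus 4 tumor libraries, 1 per condition and with no replicate, and every interval given for them covers counting error only. In addition, 12 bone marrow libraries came from WT mice without a tumor (ctrl) and from 2208L-bearing mice given vehicle or IACS-70654. Of these, 6 held CD45+ Ter119- cells and 6 held Lin- CD117+ (c-Kit+) progenitor cells, with 2 libraries per group in each sort.

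The extracellular matrix is the protein scaffold around cells. Fibronectin, the product of Fn1, binds integrins and is laid down by fibroblasts, macrophages and tumor cells. Periostin (Postn), cartilage oligomeric matrix protein (Comp) and the SPARC-related protein Sparcl1 are secreted matricellular proteins that modify adhesion. Mia is a small secreted protein first known from melanoma that binds fibronectin. Serpine2, also called protease nexin-1, is a secreted inhibitor of thrombin and plasminogen activators. Fgfr1 is a receptor tyrosine kinase for fibroblast growth factors, Igfbp2 binds insulin-like growth factors outside the cell, and Hspb1 (also called HSP27) is a small heat shock protein of the cytosol. CBP and P300 acetylate histones at enhancers and promoters and read acetylated lysines through their bromodomains.

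The upstream sequences of 3 genes are printed because they differ in level response: Postn and Igfbp2 were among the genes with the lower ratios below, and Hspb1 was a gene whose ratio changed with the mix of tumor cells. Each is the 250 bases before the RefSeq start of the gene on the plus strand of GRCm38.p6, read 5′ to 3′, and capitals mark matches to the searched motifs. Postn lies at chr3:54360857-54361106, Hspb1 at chr5:135887669-135887918 and Igfbp2 at chr1:72824230-72824479.
Postn: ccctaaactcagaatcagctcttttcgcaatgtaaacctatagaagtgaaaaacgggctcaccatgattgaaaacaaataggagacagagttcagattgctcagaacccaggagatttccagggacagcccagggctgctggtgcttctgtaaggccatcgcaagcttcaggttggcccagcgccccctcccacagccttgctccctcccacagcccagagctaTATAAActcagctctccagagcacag
Hspb1: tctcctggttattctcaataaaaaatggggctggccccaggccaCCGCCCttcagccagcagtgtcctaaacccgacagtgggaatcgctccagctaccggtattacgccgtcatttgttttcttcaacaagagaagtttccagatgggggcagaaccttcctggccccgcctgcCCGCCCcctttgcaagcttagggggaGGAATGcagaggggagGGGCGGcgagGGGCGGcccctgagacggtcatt
Igfbp2: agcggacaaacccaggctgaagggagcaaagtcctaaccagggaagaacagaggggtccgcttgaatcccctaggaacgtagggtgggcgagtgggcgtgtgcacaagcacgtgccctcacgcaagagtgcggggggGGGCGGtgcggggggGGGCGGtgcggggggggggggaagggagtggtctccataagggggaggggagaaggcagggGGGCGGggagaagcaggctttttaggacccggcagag
Postn held a TATAAA box, whose first base lies 26 bases before the start, and no GC box. Hspb1 and Igfbp2 held GC boxes (GGGCGG on either strand), and Hspb1 also held GGAATG, the core of TEAD sites. Upstream sequences were matched for 5 of the 9 genes (these 3, Serpine2 and Mia), and not for Fn1, Fgfr1, Sparcl1 and Comp. Among the 5, a GC box was found in 3, TATAAA in 1, GGAATG in 1, and the AP-1 motif TGANTCA and the cAMP response element TGACGTCA in 0. Over all 32851 upstream windows of this kind, the shares with a match were 32.7%, 12.4%, 12.6%, 6.75% and 1.55%. The GC content was 52% in Postn, 50% in Mia, 59.2% in Hspb1, 67.2% in Igfbp2 and 77.6% in Serpine2. No searched motif contains another, both strands were read, and a match is a description of letters only.

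The tumor libraries held 15590289 to 43594797 unique molecular identifiers (UMIs), the counted RNA molecules, and the marrow libraries 27427163 to 68415534. After filters, 13830 tumor-derived cells remained and were clustered without the 9 genes, so that the clusters do not rest on them. No barcode was shared between libraries of a sort. The samples carried CellPlex tags and were told apart by computation, so this does not show that they were captured separately. Clusters were named by marker genes, which gave 373 tumor cells with vehicle, 743 with IACS-70654, 486 with anti-PD1 and 1149 with the combination. Epithelial markers summed to 7127 to 9922 CPM (counts of a gene scaled to 1000000 UMIs of those cells in a library) in the tumor cells of the 4 libraries, although Krt5 was at 0 in 3 libraries. Fibroblast markers summed to 11.0 to 12.95 CPM there, with the fibroblast marker Lum at 0 in 3 libraries. Macrophage markers in tumor cells summed to 681 CPM with vehicle, 1174 with IACS-70654, 696 with anti-PD1 and 1005 with the combination, and the part of this difference in the results was not tested. Each value below is the UMI sum over the cells of a class in CPM, and a log2 ratio is the difference between libraries on the log2 scale with an exact 95% interval for counting error. A gene is called lower at a log2 ratio under -0.5. Scaling by TMM shifted the median of all genes in tumor cells from 0.15 to 0.04 between IACS-70654 and vehicle, against which the changes below can be read. Fewer expressing cells and less RNA per cell cannot be told apart in a sum, and shares of cells are therefore given as well.

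In tumor cells, all 9 genes were lower in the IACS-70654 tumor than in the vehicle tumor, which is how they were chosen. At the same ratio, 8.86% of 12499 genes were lower, and nothing is read from that count. Combination against anti-PD1 uses the other 2 libraries, but the genes were chosen with earlier results of these data known. There, 8 of 9 genes were lower, against 10.9% of 13225 genes, with a median log2 ratio of -1.87 over the 9 genes and 0.07 over all genes. Hspb1 was the exception. All 9 genes had the 20 UMIs needed over a pair of libraries in these comparisons. Between anti-PD1 and vehicle, which share the vehicle library with the first contrast, 1 of 9 genes was lower (Sparcl1), against 3.73% of 11966 genes, and the median of the 9 was -0.33. Between the combination and IACS-70654, 0 of 9 genes were lower and 3 were higher, where 626 of 13432 genes were lower and 731 higher. The 3 were Postn (0.62), Sparcl1 (0.56, -0.33 to 1.51) and Comp (2.25, 0.74 to 4.22). The interval of Sparcl1 includes 0, and 1 cell of the combination held 15 of its 36 Sparcl1 UMIs and 1 cell 17 of its 29 Comp UMIs. Without the top cell of each library the ratio was 0.62 for Postn, -0.03 for Sparcl1 and 1.39 for Comp, so that Sparcl1 was no longer higher.

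**Figure D1:**
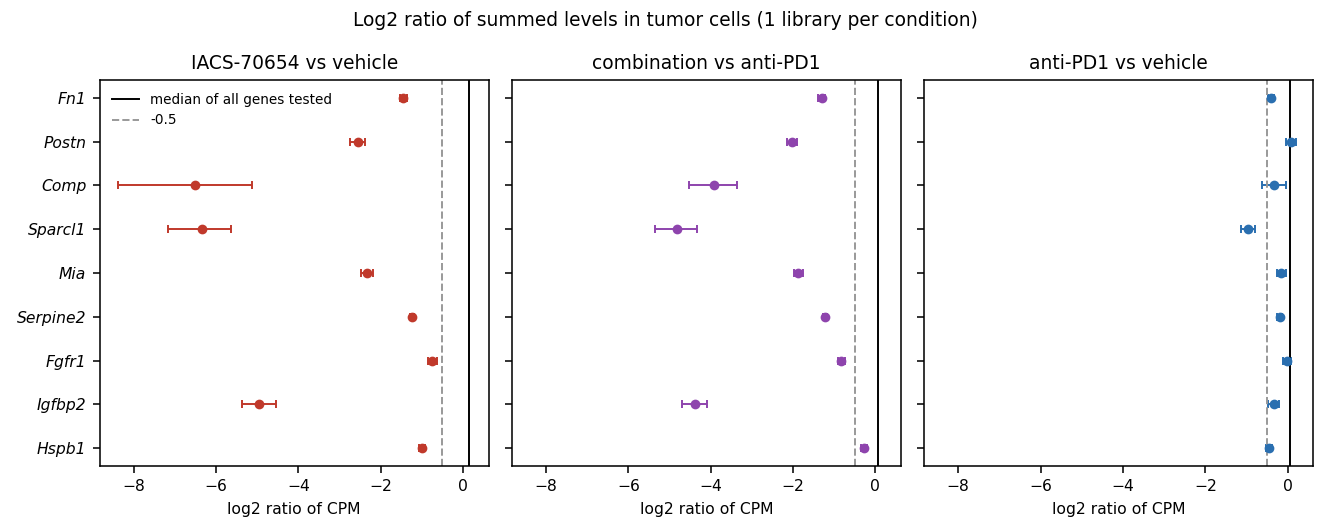
Log2 ratio of CPM in tumor cells for each of the 9 genes, with bars for the exact 95% interval of counting error, in 3 comparisons of the 4 tumor libraries, with a solid line at the median of all genes and a dashed line at -0.5. Sparcl1, Comp and Igfbp2 lie lowest in both comparisons with against without IACS-70654, and Hspb1 at -0.28 is the gene nearest to 0 between the combination and anti-PD1.

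Among the matrix genes, Fn1 (fibronectin, ENSMUSG00000026193, chr1:71585520-71653200 on GRCm38, minus strand) stood at 431 CPM with vehicle, 157 with IACS-70654, 327 with anti-PD1 and 133 with the combination. Both tumors that received IACS-70654 were below both that did not. The log2 ratio was -1.45 (-1.54 to -1.37) between IACS-70654 and vehicle and -1.30 (-1.38 to -1.22) between the combination and anti-PD1, where the level was 2.47-fold lower. A UMI of Fn1 was found in 74.0% of tumor cells with vehicle, 51.4% with IACS-70654, 74.1% with anti-PD1 and 48.6% with the combination. With each cell thinned to 2000 UMIs, which left out 6 to 12 shallower cells per library, these shares were 42.7%, 20.9%, 36.3% and 16.3%, so both tumors given IACS-70654 had the lower shares at equal depth as well.

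Postn (periostin, ENSMUSG00000027750, chr3:54361109-54391037, plus strand) had 189 CPM with vehicle, 32.1 with IACS-70654, 199.7 with anti-PD1 and 49.4 with the combination. Its level with anti-PD1 alone was close to that with vehicle (log2 ratio 0.08), and the 2 IACS-70654 tumors were both low. The log2 ratio between the combination and anti-PD1 was -2.01 (-2.14 to -1.89), a 4.04-fold lower level, and -2.56 (-2.73 to -2.39) between IACS-70654 and vehicle. Postn was higher in the combination than in the IACS-70654 tumor, by 0.62 (0.44 to 0.81). The share of tumor cells with a Postn UMI was 67.3% with vehicle, 24.5% with IACS-70654, 67.9% with anti-PD1 and 27.8% with the combination.

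Comp and Sparcl1 came close to the limit of detection in tumor cells under IACS-70654. Comp (ENSMUSG00000031849, chr8:70373558-70382066, plus strand) had 192 UMIs or 32.5 CPM with vehicle, 4 UMIs or 0.36 CPM with IACS-70654, 209 UMIs or 25.9 CPM with anti-PD1 and 29 UMIs or 1.71 CPM with the combination. A single cell held 17 of the 29 UMIs in the combination. The log2 ratio was -3.92 (-4.53 to -3.36) between the combination and anti-PD1, and Comp ranked 12 from the lowest among the 13225 genes. Sparcl1 (ENSMUSG00000029309, chr5:104079111-104113733, minus strand) had 687 UMIs with vehicle, 16 with IACS-70654, 485 with anti-PD1 and 36 with the combination, or 116, 1.44, 60.01 and 2.12 CPM. It ranked 4 from the lowest, with a log2 ratio of -4.82 (-5.35 to -4.33) between the combination and anti-PD1, a 28.3-fold lower level. Sparcl1 was also the gene that was lower with anti-PD1 than with vehicle, by -0.96 (-1.13 to -0.79). The share of tumor cells with a UMI went from 16.9% to 0.538% for Comp and from 25.5% to 1.88% for Sparcl1 between vehicle and IACS-70654, and from 17.9% to 0.957% and from 26.95% to 1.74% between anti-PD1 and the combination.

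Mia (ENSMUSG00000089661, chr7:27179742-27181157, minus strand) was counted at 253 CPM with vehicle, 50.2 with IACS-70654, 227 with anti-PD1 and 62.2 with the combination. The level was 3.65-fold lower with the combination than with anti-PD1, a log2 ratio of -1.87 (-1.98 to -1.76), and the ratio of IACS-70654 to vehicle was -2.33 (-2.47 to -2.19). Tumor cells with a Mia UMI made up 75.6%, 38.1%, 80.0% and 41.8% of tumor cells with vehicle, IACS-70654, anti-PD1 and the combination. The 2 tumors given IACS-70654 were again both low, and anti-PD1 lay near vehicle.

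Serpine2 (ENSMUSG00000026249, chr1:79794197-79861180, minus strand), the protease inhibitor of the group, had 861 CPM with vehicle, 365 with IACS-70654, 751 with anti-PD1 and 323 with the combination. The ratios of the 2 contrasts were nearly the same, -1.24 (-1.30 to -1.18) and -1.22 (-1.27 to -1.17), although the 4 libraries differ. Most tumor cells of every library had a Serpine2 UMI (94.6%, 84.1%, 93.4% and 80.8% in the same order).

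Of the growth factor genes, Fgfr1 (ENSMUSG00000031565, chr8:25513654-25575718, plus strand) had 224 CPM with vehicle, 134 with IACS-70654, 221 with anti-PD1 and 125 with the combination, log2 ratios of -0.74 (-0.85 to -0.64) and -0.82 (-0.92 to -0.73). This was a smaller difference than for the matrix genes, 1.77-fold between the combination and anti-PD1. Igfbp2 (ENSMUSG00000039323, chr1:72824503-72852474, plus strand) had 150 CPM with vehicle, 4.85 with IACS-70654, 119 with anti-PD1 and 5.71 with the combination. Its log2 ratio between the combination and anti-PD1 was -4.38 (-4.70 to -4.08), a 20.9-fold lower level and rank 7 from the lowest, and it was -4.95 (-5.38 to -4.55) between IACS-70654 and vehicle. The UMIs that remained lay in few cells: 1 cell held 17 of 54 in the IACS-70654 tumor, 1 cell held 31 of 97 in the combination, and the share of tumor cells with an Igfbp2 UMI was 36.7% with vehicle, 2.96% with IACS-70654, 36.8% with anti-PD1 and 3.48% with the combination.

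Hspb1 (ENSMUSG00000004951, chr5:135887919-135889563, plus strand) had 531 CPM with vehicle, 268 with IACS-70654, 389 with anti-PD1 and 322 with the combination. Vehicle was highest, and the combination lay above IACS-70654 alone. The log2 ratio was -0.99 (-1.06 to -0.91) between IACS-70654 and vehicle and -0.28 (-0.34 to -0.21) between the combination and anti-PD1, where Hspb1 ranked 2623 from the lowest of 13225 genes. A small cluster of tumor cells led by Krt14, described below, had a high Hspb1 level and was found in the 2 tumors given IACS-70654 and in neither of the others. It held 1181 Hspb1 UMIs in the combination. The cluster led by Gbp2b and Gbp4 held 1182 there, and had 3, 58, 1 and 105 cells with vehicle, IACS-70654, anti-PD1 and the combination. Its Hspb1 level was 674 CPM with the combination and 211 CPM with IACS-70654 alone.

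Free RNA gives UMIs in cells that do not express a gene, and T or NK cells serve as a guide to this. Comp and Igfbp2 had 0 UMIs in T or NK cells of the 4 libraries, where 3 UMIs would give 10.2 to 15.6 CPM. A Fn1 UMI was found in 4.82% to 10.3% of T or NK cells, whose median depth was 1925.5 to 2168.5 UMIs against 13799 to 16158.5 in tumor cells. With T or NK cells also thinned to 2000 UMIs, Fn1 was found in 3 of 38, 6 of 37, 2 of 63 and 1 of 63 of them with vehicle, IACS-70654, anti-PD1 and the combination. The 16.2% with IACS-70654 (exact 95% interval 6.19% to 32.0%) rests on 6 cells, and only 37 of the 78 T or NK cells there were deep enough to be thinned. Its interval includes the 20.9% of tumor cells in that library, so these shares could not be told apart at this depth. For Postn the share without thinning was 0% to 1.20%, for Mia 0% to 2.41% and for Serpine2 0.909% to 3.85%. At 2000 UMIs per cell, the shares of tumor cells in the IACS-70654 and combination tumors were 5.97% and 8.08% for Postn and 8.14% and 10.6% for Mia, and they were 0.136% and 0.176% for Comp and 0.543% and 1.05% for Igfbp2.

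**Figure D2:**
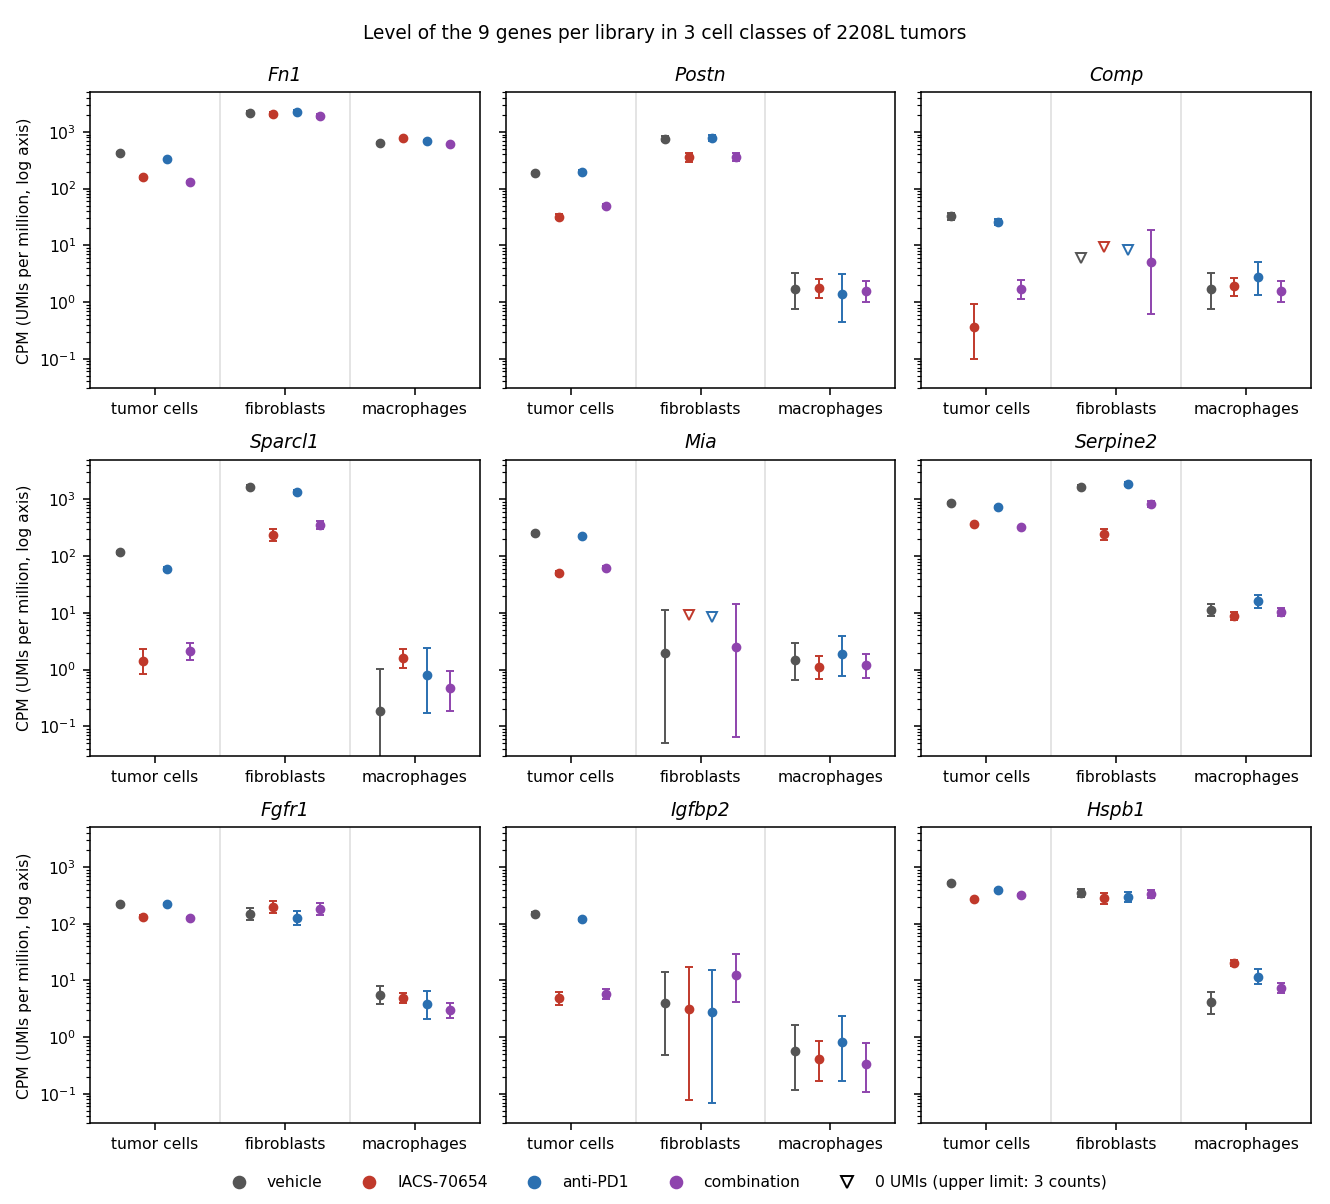
CPM of the 9 genes on a log axis in tumor cells, fibroblast-like cells (labelled fibroblasts) and macrophages of the 4 tumor libraries, with bars for the exact 95% Poisson interval and open triangles at the level of 3 UMIs where a gene had 0. Tumor cells show high points without IACS-70654 and low points with it for most genes, whereas Fn1 in macrophages lies between 603 and 781 CPM in all 4 libraries.

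Tumor cells formed 8 clusters, and the 9 genes were spread over them unevenly. Over the 4 libraries, the cluster led by Tesc and Alkal2 had the highest level of Comp (64.1 CPM), Sparcl1 (135 CPM), Igfbp2 (247 CPM), Mia (271 CPM) and Serpine2 (753 CPM). It held 87 cells with vehicle and 129 with anti-PD1 but 5 with IACS-70654 and 15 with the combination, so its pooled levels come mostly from tumors without IACS-70654. In single libraries, Serpine2 was higher in the Naaladl2 and Cpm cluster than in it with vehicle (1038 against 887 CPM), IACS-70654 (459 against 364) and anti-PD1 (858 against 721). With the combination it was lower there (343 against 459). Serpine2 in the Ptprz1 and Slc35f1 cluster was also above the Tesc and Alkal2 cluster with IACS-70654 (453 CPM) and anti-PD1 (831 CPM). With vehicle (730 CPM) and the combination (410 CPM) it was below. The Igfbp5 and Foxq1 cluster was slightly above with IACS-70654 (374 CPM) and anti-PD1 (724 CPM), and below with vehicle (834 CPM) and the combination (338 CPM). Over the 4 libraries, Postn and Fgfr1 were highest in the cluster led by Naaladl2 and Cpm, at 222 and 275 CPM, and low in the cluster led by the interferon-inducible genes Gbp2b and Gbp4, at 6.002 and 46.7 CPM. Postn was slightly higher in the Igfbp5 and Foxq1 cluster than in the Naaladl2 and Cpm cluster with IACS-70654 (75.0 against 68.2 CPM) and with the combination (119 against 112 CPM). Hspb1 was highest in the cluster led by the keratin genes Krt14 and Krt6a, at 2111 CPM. That cluster held 0, 29, 0 and 52 cells with vehicle, IACS-70654, anti-PD1 and the combination. Numbers of cells per cluster are given as a description, since each condition is 1 library and the clustering used genes that differ between them.

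**Figure D3:**
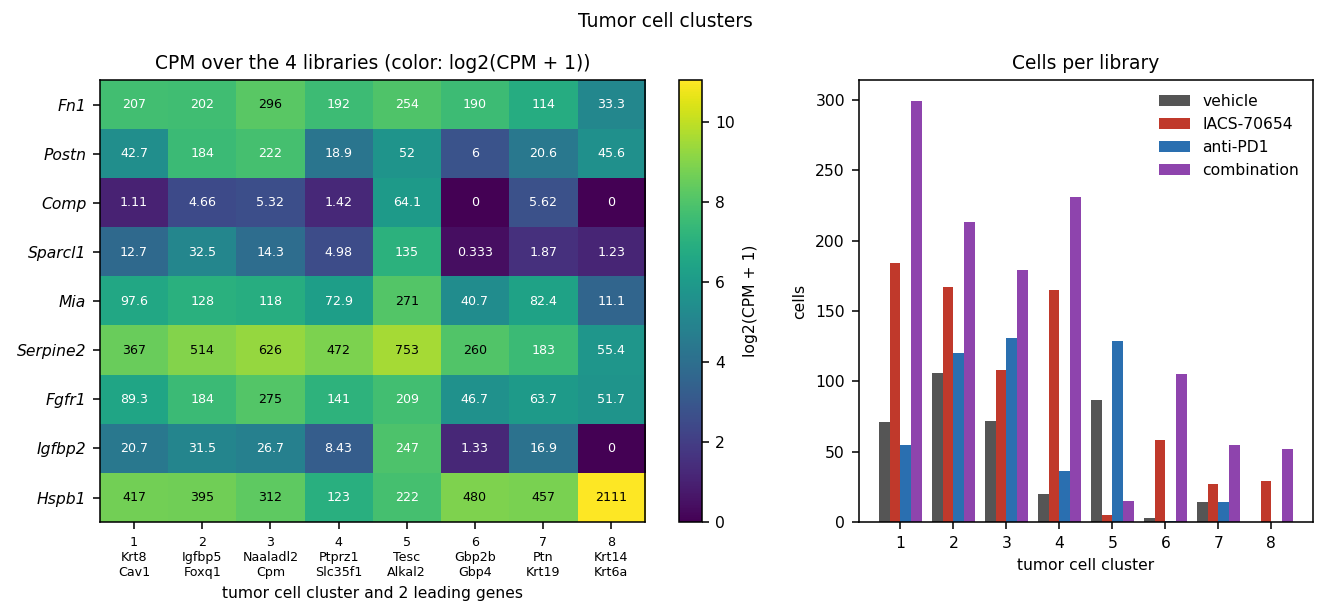
CPM of the 9 genes in the 8 tumor cell clusters, summed over the 4 libraries, printed in each field and colored by log2(CPM + 1), beside the number of cells of each cluster in each library. In these pooled sums, Comp, Sparcl1, Igfbp2, Mia and Serpine2 are highest in cluster 5 (Tesc and Alkal2), Postn and Fgfr1 in cluster 3 (Naaladl2 and Cpm) and Hspb1 in cluster 8 (Krt14 and Krt6a). Within the vehicle, IACS-70654 and anti-PD1 libraries taken singly, Serpine2 was higher in cluster 3 than in cluster 5.

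The lower levels were also present within clusters that were well filled in all 4 libraries. These were cluster 1 (Krt8 and Cav1), cluster 2 (Igfbp5 and Foxq1) and cluster 3 (Naaladl2 and Cpm), each with 55 to 299 cells per library. Between the combination and anti-PD1, the log2 ratio in clusters 1, 2 and 3 was -1.31, -2.19 and -1.91 for Fn1, -1.47, -1.41 and -1.80 for Postn, -1.69, -1.65 and -1.82 for Mia and -1.18, -1.10 and -1.32 for Serpine2. Hspb1, which barely differed in all tumor cells together, was lower within each of the 3 clusters, by -1.22, -0.90 and -1.51. Fgfr1 was lower by less, with -0.41, -0.37 and -0.42, none of which passes -0.5. Igfbp2 was lower by -2.39, -3.83 and -5.05. Sparcl1 was lower by -3.90 in cluster 1 and -4.42 in cluster 3, and in cluster 2 it had 0 UMIs with the combination and 129 with anti-PD1, where the interval of the ratio ends at -5.90. Comp had 23 UMIs or fewer per library in each of the 3 clusters, so its levels there are near the floor. Since some genes reached 20 UMIs in these clusters through the anti-PD1 library, no count over the 9 genes is given for them in this contrast. Cluster 5 (Tesc and Alkal2) had 129 cells with anti-PD1 but 15 with the combination. With anti-PD1 it held 162 of 209 Comp, 678 of 963 Igfbp2 and 270 of 485 Sparcl1 UMIs. In it, anti-PD1 and combination levels were 56.6 and 44.6 CPM for Comp, 237 and 113 for Igfbp2, and 94.3 and 42.0 for Sparcl1. Fn1 stood at 228 and 260 CPM there, and the other genes were lower with the combination. The part of cluster makeup in the ratios over all tumor cells was not tested.

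With the clusters that had at least 20 cells in both libraries given the same weights in each, the log2 ratio between the combination and anti-PD1 was -1.13 for Hspb1 instead of -0.28, and -0.36 for Fgfr1 instead of -0.82. Without the clusters that had fewer than 20 cells in a library, Hspb1 stood at -1.16. For IACS-70654 against vehicle, the ratios in clusters 1, 2 and 3 were -0.62, -2.41 and -1.35 for Hspb1 and -0.56, -0.49 and -0.53 for Fgfr1. Fn1 had -0.96, -1.70 and -2.53 in that contrast, a wider range than Serpine2 with -1.43, -1.16 and -1.18. Between anti-PD1 and vehicle, Postn and Igfbp2 had ratios of 0.08 and -0.33 over all tumor cells but of -0.84 (-1.28 to -0.41) and -2.55 (-3.31 to -1.87) in cluster 1. Sparcl1 was lower in cluster 1 (-1.86) and cluster 5 (-1.26), with -0.57 (-1.18 to 0.04) in cluster 3 and -0.14 (-0.50 to 0.23) in cluster 2. In the same contrast Hspb1 had ratios of 0.21, -1.07, 0.13 and -0.44 in clusters 1, 2, 3 and 5, and Fn1 of 0.17, -0.28, -0.73 and -0.43. Postn was at -0.05, 0.16 and 0.35 in clusters 2, 3 and 5, and Igfbp2 at -0.19, -0.20 and -0.32. Comp was at -0.56 (-0.88 to -0.23) in cluster 5. Of the ratios above 0, that of Hspb1 in cluster 1 (0.05 to 0.37) has an interval that leaves out 0, and those of Fn1 (-0.05 to 0.39), of Hspb1 in cluster 3 (-0.03 to 0.28) and of Postn (-0.01 to 0.34 and -0.03 to 0.74) include it. The differences between clusters were not tested.

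**Figure D4:**
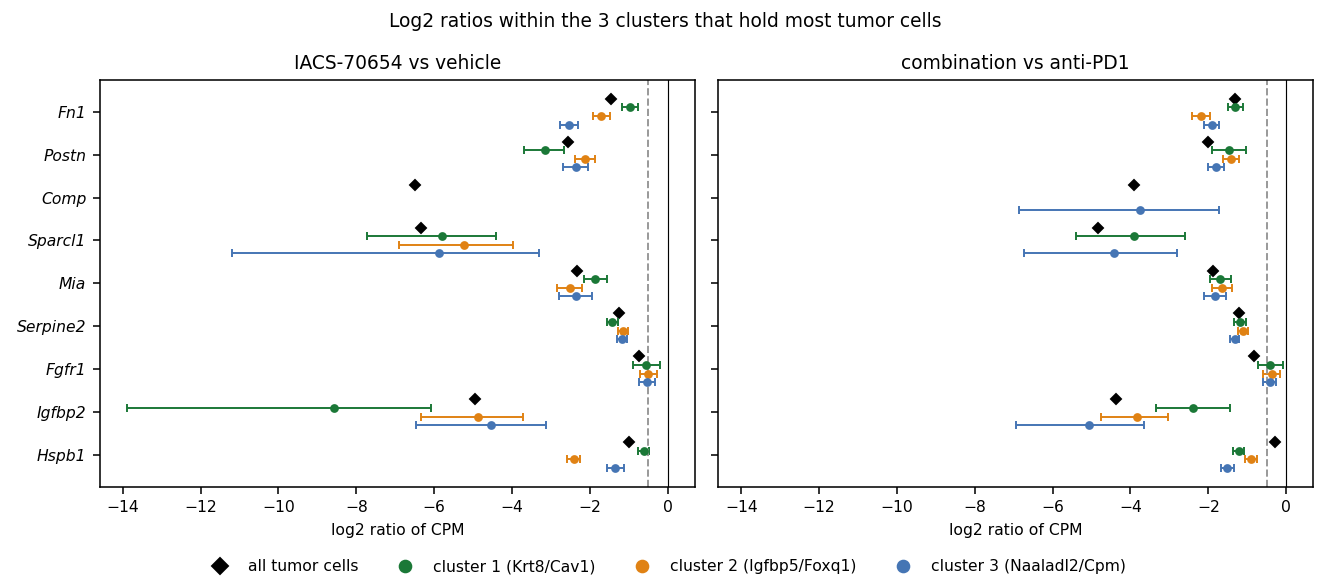
Log2 ratio of CPM for the 9 genes within tumor cell clusters 1, 2 and 3, for IACS-70654 against vehicle and for the combination against anti-PD1, with exact 95% intervals, a diamond for all tumor cells and a dashed line at -0.5. Points are left out where a library had 0 UMIs or the pair had under 20. Hspb1 lies between -0.90 and -1.51 in the second comparison and Fgfr1 between -0.37 and -0.42.

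The fibroblast-like cluster was small, with 46, 37, 34 and 43 cells in the vehicle, IACS-70654, anti-PD1 and combination tumors, and held fibroblast markers at 15290 to 20072 CPM. It also held pericyte markers, which summed to 3025, 910, 3196 and 773 CPM in that order, and macrophage markers, at 2223, 11943, 4052 and 7407 CPM. Tumor cell markers in it stood at 3103 CPM with the combination and 140 to 452 CPM in the other libraries. These move with treatment, and their part in the values below was not tested except where cells were split by pericyte markers. Mia, Comp and Igfbp2, each with 0 to 5 UMIs per library, were at or near the limit of detection in these cells, where 3 UMIs give 5.93 to 9.35 CPM, and the other 6 genes had at least 46 UMIs in each library.

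Fn1 in the fibroblast-like cells was higher than in any other class, at 2193 CPM with vehicle, 2045 with IACS-70654, 2292 with anti-PD1 and 1908 with the combination. The log2 ratios over all these cells were -0.10 (-0.24 to 0.04) and -0.26 (-0.41 to -0.12). Postn was lower with IACS-70654, at 763, 358, 790 and 359 CPM, with log2 ratios of -1.09 (-1.40 to -0.79) and -1.14 (-1.44 to -0.84). Serpine2 stood at 1683, 246, 1854 and 839 CPM and Sparcl1 at 1687, 237, 1341 and 356 CPM. Both were low in the 2 IACS-70654 tumors, with ratios of -2.77 (-3.12 to -2.44) and -1.14 (-1.34 to -0.95) for Serpine2 and of -2.83 (-3.19 to -2.49) and -1.91 (-2.20 to -1.64) for Sparcl1. Fgfr1 (150, 199, 127 and 181 CPM) had ratios of 0.41 (-0.09 to 0.91) and 0.50 (-0.05 to 1.07), whose intervals both include 0. Hspb1 (352, 281, 297 and 338 CPM) had ratios of -0.33 and 0.19. Of these genes, 3 of 6 were lower in each contrast, against 21.0% of 5769 genes for IACS-70654 and vehicle and 16.9% of 5310 genes for the combination and anti-PD1.

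Cells with at least 5 UMIs of pericyte markers made up 33 of 46, 6 of 37, 24 of 34 and 9 of 43 fibroblast-like cells, and 16 of the 160 cells had 3 to 7 such UMIs and so lay near the limit. This limit was not scaled to depth, so a shallow cell with pericyte RNA could fall under it. The median depth of fibroblast-like cells was 10089.5, 8693, 9967 and 7254 UMIs in the same order, and its part in the split was not tested. In the cells under 5, Serpine2 had 17, 49, 3 and 184 UMIs, or 169, 181, 29.6 and 656 CPM. Its ratios there were 0.10 (-0.72 to 0.99) and 4.47 (2.90 to 6.76), so the lower level of Serpine2 did not hold in them. Sparcl1 had 4, 12, 0 and 70 UMIs in those cells and likewise was not lower. Postn remained lower in them, at 844, 315, 1106 and 289 CPM (-1.42 and -1.94), and Fn1 was lower too, at 3654, 2235, 3635 and 2170 CPM (-0.71 and -0.74). In the cells with 5 or more, Serpine2 had 2059, 592, 2566 and 1297 CPM (-1.80 and -0.98), Sparcl1 2096, 1264, 1865 and 622 CPM (-0.73 and -1.58) and Postn 743, 592, 666 and 533 CPM (-0.33 and -0.32). Fn1 in them stood at 1830, 1027, 1768 and 1253 CPM, with ratios of -0.83 (-1.27 to -0.43) and -0.50 (-0.78 to -0.22). Fn1 was thus below its level without IACS-70654 in both kinds of fibroblast-like cells, by more than over all of them together. Fgfr1 likewise had ratios below 0 in both kinds, -0.42 and -0.10 in the cells under 5 and -0.52 and -0.08 in the others, and all 4 intervals include 0. Hspb1 had ratios of 0.97 (0.06 to 2.00) and 0.01 in the cells under 5 and of 0.38 and 0.26 in the others, where 3 of these 4 intervals include 0.

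Macrophages were the largest class, with 721, 2454, 562 and 2300 cells. Of the 9 genes only Fn1 was abundant in them, at 636 CPM with vehicle, 781 with IACS-70654, 682 with anti-PD1 and 603 with the combination. The 4 values lie close together, with log2 ratios of 0.30 (0.24 to 0.35) and -0.18 (-0.24 to -0.11) that point in opposite directions. Fn1 was highest in the macrophage cluster led by Arg1 and Lpl, where it had 965, 1982, 977 and 1539 CPM, and thus more with IACS-70654. In the cluster led by Ms4a7 and Apoe it had 555, 544, 504 and 423 CPM, and in that led by Zdhhc14 and Slc8a1 688, 864, 754 and 637 CPM. The cluster led by Ifit3 and Ifit2 had 196, 545, 562 and 446 CPM, that led by Pclaf and Top2a 475, 748, 555 and 658 CPM and that led by Saa3 and Folr2 720, 878, 886 and 515 CPM. In that last cluster the combination was the lowest, whereas in the Ifit3 and Ifit2 cluster vehicle was. The other genes were rare in macrophages, at 8.70 to 16.1 CPM for Serpine2, 2.99 to 5.603 for Fgfr1, 1.36 to 1.76 for Postn, 1.12 to 1.91 for Mia, 1.59 to 2.72 for Comp and 0.33 to 0.82 for Igfbp2. Hspb1 stood at 4.11, 20.3, 11.7 and 7.36 CPM, but 236 of its 345 UMIs in the IACS-70654 tumor came from 1 cell, and without the top cell of each library it had 3.55, 6.41, 4.09 and 5.64 CPM. For IACS-70654 and vehicle, 0 of 8 genes with enough UMIs were lower in macrophages against 11.5% of 12134 genes, and for the combination and anti-PD1 4 of 7 were, against 13.3% of 11801 genes (Serpine2 -0.62, Mia -0.68, Hspb1 -0.67 and Comp -0.77, all of low level). In the anti-PD1 tumor 1 cell held 28 of the 43 Hspb1 UMIs, and without the top cell of each library the Hspb1 ratio was 0.46 and 3 genes were lower. None of these low levels was set against the free RNA seen in T or NK cells, so expression of these genes by macrophages is not shown.

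By class, the order of levels differed between genes. With vehicle, Fn1 was highest in fibroblast-like cells (2193 CPM), then in monocytes (929 CPM), macrophages (636), endothelial cells (494) and tumor cells (431). The intervals of macrophages and endothelial cells (353 to 673 CPM, 11 cells) overlapped, and those of endothelial and tumor cells did as well. With IACS-70654 tumor cells stood at 157 CPM, below each of these classes, and macrophages (781 CPM) stood above monocytes. Fn1 in monocytes was 624, 840 and 762 CPM with IACS-70654, anti-PD1 and the combination. Sparcl1 was highest in fibroblast-like cells with vehicle, then in endothelial cells (778, 369, 637 and 681 CPM in the 4 libraries) and tumor cells. With the combination, endothelial cells had the highest Sparcl1, and with IACS-70654 the intervals of endothelial (276 to 484 CPM) and fibroblast-like cells (187 to 296 CPM) overlapped. Serpine2 and Postn were highest in fibroblast-like cells and second in tumor cells in every library, except that Serpine2 was higher in tumor cells with IACS-70654 alone. Fgfr1 was highest in tumor cells without IACS-70654 and in fibroblast-like cells with it, and its endothelial level with vehicle (124 CPM, 59.2 to 227) did not differ from that of fibroblast-like cells (118 to 188) beyond counting error. Hspb1 was highest in tumor cells with vehicle and anti-PD1, and tumor and fibroblast-like cells did not differ beyond counting error with IACS-70654 or the combination. Mia, and Igfbp2 and Comp without IACS-70654, were found mostly in tumor cells here. Tumor cells held 96.5%, 81.0%, 98.0% and 88.3% of the Mia UMIs of the kept cells and 97.6%, 83.1%, 98.7% and 80.8% of those of Igfbp2. For Comp this share was 94.1%, 8.16%, 94.6% and 42.6%. Tumor cells held 31.9%, 8.91%, 38.5% and 13.6% of Fn1 UMIs, and macrophages held 42.7%, 67.6%, 36.5% and 54.7%.

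Other genes of the same pathways were read in tumor cells from fixed lists. Genes named from a list are among its 3 most abundant or its 2 with the lowest ratio of combination to anti-PD1. Those 2 are low in that contrast by this choice, so their ratios do not stand for the list. The counts below stand beside 1107 of all 12499 genes lower and 2544 higher between IACS-70654 and vehicle, and 1446 of 13225 lower and 2223 higher between the combination and anti-PD1. Of 25 collagen genes, 11 had at least 20 UMIs between IACS-70654 and vehicle, and of these 7 were lower and 0 higher, with a median log2 ratio of -0.57 against 0.15 over all genes. Between the combination and anti-PD1, 8 of 17 were lower and 3 higher, with a median of -0.49 against 0.07. Col9a1, a chain of the cartilage collagen IX, had 211, 52.3, 211 and 62.0 CPM in the 4 libraries, whereas Col18a1 was slightly higher with IACS-70654 (0.23 and 0.30). Of 42 matrix glycoproteins and proteoglycans, 13 of the 23 with enough UMIs were lower and 4 higher (median -0.63), and 11 of 23 were lower and 6 higher in the second contrast (-0.44). Spp1, which encodes osteopontin, was the most abundant, at 23042, 10582, 20621 and 11117 CPM. Ltbp2, a latent TGF-beta binding protein, had log2 ratios of -2.83 and -2.20, and Crispld2 -1.60 and -1.78. Laminins showed no such shift, with 1 of 8 lower and 3 higher (median 0.12) and then 1 of 8 lower and 1 higher (0.27). Lamc1 was at 0.67 and 0.42.

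Of the integrins, the receptors of fibronectin and other matrix proteins, 5 of 14 were lower and 1 higher between IACS-70654 and vehicle (median -0.12), and 3 and 2 between the combination and anti-PD1 (-0.09). Itgb3, the beta chain of the vitronectin receptor, was at -2.51 and -2.32 and the laminin receptor chain Itga6 at -0.74 and -0.78, whereas Itgb1 was at 0.24 in both. Matrix proteases and their inhibitors went both ways, with 6 of 22 lower and 7 higher (0.09) and then 5 lower and 10 higher (0.31). Timp1, an inhibitor of metalloproteases, was higher with IACS-70654, at 69.3, 269, 80.9 and 207 CPM. In the fibroblast growth factor list, 7 of 12 genes were lower and 1 higher (-0.53), and then 5 of 11 and 0 (-0.28). The ligand Fgf1 was at -1.58 and -2.29 and the feedback inhibitor Spry1 at -0.93 and -0.98, while Fgfr2 was at 0.20 and -0.04. In the insulin-like growth factor list, 2 of 10 were lower and 3 higher (0.20), and then 3 and 2 (-0.15). Igfbp5 had 2157, 865, 2223 and 835 CPM. Of the heat shock genes, the abundant Hsp90ab1 was at -0.13 and -0.08 and Hspa8 at 0.13 and 0.36, with 1 of 17 lower and 2 higher (0.05) and then 0 lower and 1 higher (0.19). Of the epithelial and mesenchymal transition genes, 2 of 17 were lower and 5 higher (0.24), and then 2 lower and 7 higher (0.44). Krt8 was at -0.03 and 0.76, Epcam at 0.07 and 0.18, Zeb1 at -1.02 and -1.07 and Cdh2 at -1.54 and -0.84. The lists hold none of the 9 genes.

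The genes whose log2(CPM + 1) levels ran most like the mean of the 9 genes, each standardized, over 34 sums of a cell class in a library, were Ntrk2 (Pearson r = 0.934), Plekhh2 (0.928), Ccdc68 (0.925), Scube1 (0.912), Hmcn1 (0.909), Megf10 (0.907), Pdzrn3 (0.904), Mme (0.900), Tgfb2 (0.899) and Tpm1 (0.899). These sums share libraries and cell classes, so that r is a description only.

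In bone marrow, where each group had 2 libraries, Fn1 fell in monocytes under IACS-70654. The ctrl libraries had 1210 and 1173 CPM, the vehicle libraries 1069 and 1130 CPM, and the IACS-70654 libraries 523 and 532 CPM. Both IACS-70654 libraries were below all 4 others, and ctrl and vehicle differed little. The level was 2.07-fold lower than with vehicle, a log2 change of -1.05 (SE 0.034, n = 2 libraries per group, Benjamini-Hochberg adjusted p = 1.09e-17 by edgeR's quasi-likelihood test). A gene was called lower where this p was under 0.01 with a log2 change under -0.5, as 3.34% of 11182 genes were. The change was -0.96 in the monocyte cluster led by Apoe and -1.32 in that led by F13a1. In tumors, Fn1 in monocytes was 929 CPM with vehicle and 624 with IACS-70654, a log2 ratio of -0.57, but 840 with anti-PD1 and 762 with the combination, a ratio of -0.14. Whether 2 libraries of a group came from separate mice is not stated, so p-values measure only the spread between these libraries, which may be technical. At a chi-square p under 0.05, 7.50% to 9.71% of genes differed between the 2 libraries of a group, against 5% for counting noise alone. The mean chi-square statistic was 1.29 to 2.43, where counting noise alone gives 1.

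Serpine2 changed in the summed c-Kit+ cells and in monocytes with opposite signs, and the difference between the classes was not tested. In c-Kit+ cells, all kept cells of the sort together, the ctrl libraries had 16.2 and 15.96 CPM, the vehicle libraries 29.7 and 29.4 CPM and the IACS-70654 libraries 21.2 and 21.7 CPM, so vehicle was highest and IACS-70654 lay between. The log2 change from vehicle to IACS-70654 was -0.52 (SE 0.043, edgeR adjusted p = 2.31e-08 with Benjamini-Hochberg adjustment), with 6.72% of 15750 genes called lower. With all detected genes kept in the fit it was -0.49, which ends the call. The c-Kit+ sort is a mix of progenitors, and its makeup differed between groups. Of its 24 clusters, the one led by Prss34 and Mcpt8, genes of basophils, made up 7.62% and 7.05% of cells in the vehicle libraries but 0.918% and 0.764% under IACS-70654. The cluster led by S100a9 and S100a8 held 14.7% and 12.9% in the vehicle libraries, against 4.74% and 4.77%. In the first, Serpine2 stood at 73.8 and 75.7 CPM in the vehicle libraries, against 25.9 and 31.7 CPM under IACS-70654, and in the second at 48.2 and 44.0 against 48.8 and 40.0 CPM. With the 18 clusters that had at least 20 cells in each of the 6 libraries given the same weights, the 2 vehicle libraries stood at 24.9 and 25.6 CPM of Serpine2 and the 2 IACS-70654 libraries at 21.0 and 21.4 CPM. The ctrl libraries stood at 23.4 and 23.7 CPM at these weights, so IACS-70654 lay below ctrl there and not between ctrl and vehicle. The log2 ratio of the IACS-70654 mean to the vehicle mean, without TMM scaling, is -0.25. The -0.52 above is an edgeR estimate with TMM scaling, so these values differ in scaling as well as in makeup. In CPM, the vehicle libraries lay closer to the IACS-70654 libraries at equal makeup, and -0.25 is short of the limit of size. The difference was not tested. In monocytes Serpine2 was rare and rose, from 6 and 10 UMIs with vehicle to 40 and 57 with IACS-70654, or from 1.67 and 2.73 to 5.61 and 6.21 CPM, with 2.00 and 3.01 CPM in ctrl. Its log2 change was 1.43 (SE 0.37, edgeR adjusted p = 0.00642, Benjamini-Hochberg), with 2.48% of genes called higher, but the call ended in DESeq2 (adjusted p = 0.127) and when any vehicle or IACS-70654 library was left out (adjusted p = 0.0256 to 0.124). In neutrophils Serpine2 had 2.25 and 2.16 CPM in ctrl, 0.911 and 0.858 CPM in the vehicle libraries and 1.44 and 1.78 CPM in the IACS-70654 libraries. This change of 0.71 was not called (edgeR adjusted p = 0.0981), and 9.55% of genes were called higher.

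Fn1 in neutrophils was low, at 11.0 and 11.2 CPM in ctrl, 8.01 and 7.78 CPM in the vehicle libraries and 6.84 and 6.06 CPM in those with IACS-70654. Its change of -0.47 (SE 0.15, edgeR adjusted p = 0.00685 after Benjamini-Hochberg adjustment) did not pass the limit of size, and 7.30% of 11558 genes were called lower. Most neutrophils of the groups lay in different clusters, with 54.9% and 40.7% of those with IACS-70654 in clusters led by Ifitm1 and Wfdc17 and by Stfa3 and Cstdc6, and 41.5% and 33.4% of those with vehicle in clusters led by Acod1 and Prr5l and by Prok2 and Retnlg. In c-Kit+ cells Fn1 had 0.757 and 1.14 CPM in ctrl, 1.92 and 1.93 CPM in the vehicle libraries and 2.76 and 2.37 CPM in those with IACS-70654. This change of 0.38 was not called (edgeR adjusted p = 0.0508), and 3.77% of genes were called higher. Fgfr1 in c-Kit+ cells had 2.75 and 2.97, 3.02 and 4.23, and 5.05 and 4.97 CPM, and its change of 0.49 (SE 0.13, edgeR adjusted p = 0.00567) fell just short of the 0.5 needed. Without vehicle replicate 2 it was 0.67 and was called, as were 0.51 without ctrl replicate 2 and 0.50 without IACS-70654 replicate 2, and without vehicle replicate 1 it was 0.20. It was called as well with all detected genes kept (0.52) and with the vehicle and IACS-70654 libraries alone (0.51). At equal makeup of the c-Kit+ clusters the log2 ratio of mean CPM was -0.13 for Fgfr1 and 1.13 for Fn1, neither of them tested. These ratios lack TMM scaling, unlike the edgeR changes. The cluster led by Hlf and Mecom, in which Fgfr1 had 31.5 and 31.6 CPM in the vehicle libraries against 25.7 and 19.5 CPM under IACS-70654, held 7.35% and 8.92% of the vehicle cells and 15.4% and 15.2% of the IACS-70654 cells. Fn1 in the cluster led by F13a1 and Ms4a6c had 44 and 14 UMIs in the vehicle libraries against 91 and 44 under IACS-70654, or 3.92 and 2.94 against 13.99 and 12.3 CPM. Comp in c-Kit+ cells had 2 to 19 UMIs per library and was not called (-1.15, SE 0.55, edgeR adjusted p = 0.0978). The other genes were near 0 in marrow, with Igfbp2 at 0 UMIs in the monocytes and neutrophils of all 6 libraries and Hspb1 at 0 in neutrophils.

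**Figure D5:**
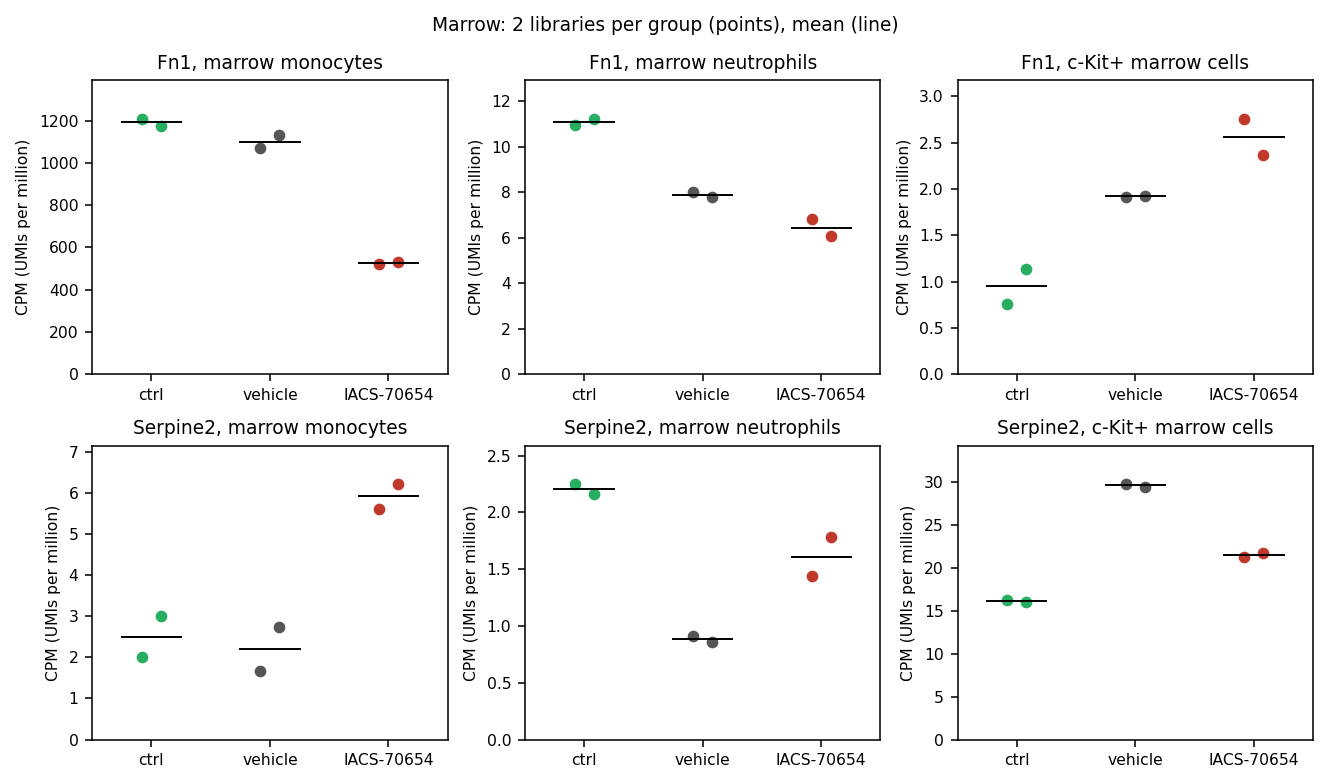
CPM of Fn1 and Serpine2 in monocytes, neutrophils and c-Kit+ cells of the marrow, with 1 point per library for ctrl, vehicle and IACS-70654 and a line at the mean of the 2 libraries. Fn1 in monocytes lies at 523 and 532 CPM with IACS-70654 and at 1069 to 1210 CPM in the other 4 libraries.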

How the data were processed

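RNA of single cells was measured in 4 tumor and 12 marrow libraries made with 10x 3′ chemistry and CellPlex tags. The deposited values are UMI counts per gene and cell, which the authors made with Cell Ranger (version 7.1.0 for the tumors and 7.2.0 for the marrow, per the file headers). Per the labels the build was mm10. The counts were not normalized, and all 32285 genes are listed. The authors lowered the confidence needed to assign a tumor barcode to its sample. The 9 genes and the gene lists were chosen with earlier results of these data known.

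Kept cells had over 200 genes, under 6000 genes and no more than 10% of UMIs from mitochondrial genes. Cells were clustered per sort in Python 3.11.15 (scikit-learn 1.9.0, leidenalg 0.10.2) on 2000 variable genes that excluded the 9 genes, with 30 components, 20 neighbors and resolution 1, and were named by marker lists. Libraries were not integrated. Mixed clusters (41, 137, 24 and 130 cells) were left out of the classes. A cluster was mixed where Epcam and the leukocyte gene Ptprc were each found in at least 50% of its cells. The same rule held for the T cell gene Cd3e with the myeloid gene Csf1r. UMIs were summed per class and library. Tumor ratios were taken for genes with at least 20 UMIs over both libraries, with exact Poisson intervals for levels and exact conditional binomial intervals for ratios (scipy 1.17.1), and no test was made across 1 library per condition. In R 4.3.3, edgeR 4.0.16 fitted the marrow sums by quasi-likelihood over all 6 libraries of a sort, after filterByExpr and TMM scaling. Calls needed a Benjamini-Hochberg adjusted p below 0.01 together with a change beyond 0.5 on the log2 scale. DESeq2 1.42.0 was an alternative. The test was tried on simulated counts first. Genes named from the lists are, per list, among the 3 most abundant in tumor cells and the 2 with the lowest ratio of combination to anti-PD1 at 50 UMIs or more. 1 item is not reported here. Alternatives in scaling, thresholds, cell filters, weighting, clusters and libraries were computed, and their effect is given at the end. Upstream sequences come from RefSeq on GRCm38.p6.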

Additional observations from a re-analysis of the deposited data

Results flagged for a closer look

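In these results an effect pointed one way in 1 class or contrast and the other way in another, and the difference between them was not tested.

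In macrophages the log2 ratio of Fn1 between IACS-70654 and vehicle was 0.30, whereas it was -1.45 in tumor cells, and between the combination and anti-PD1 it was -0.18 in macrophages. The ratio of Hspb1 in macrophages was 2.30 between IACS-70654 and vehicle, against -0.99 in tumor cells, and -0.67 between the combination and anti-PD1. Of its 345 UMIs in macrophages with IACS-70654, 236 lay in 1 cell, and with anti-PD1 28 of 43 did. Without the top cell of each library the ratios were 0.85 and 0.46. Sparcl1 in macrophages had a ratio of 3.09 between IACS-70654 and vehicle, against -6.34 in tumor cells, from 27 UMIs with IACS-70654, of which 18 lay in 1 cell, and 1 UMI with vehicle.

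In marrow, the log2 change of Fn1 was 0.38 in c-Kit+ cells and -1.05 in monocytes. That of Serpine2 was 1.43 in monocytes and 0.71 in neutrophils, against -0.52 in c-Kit+ cells. At equal makeup of the c-Kit+ clusters, the c-Kit+ values were 1.13 for Fn1 and -0.25 for Serpine2, as ratios of mean CPM without TMM scaling.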

How the results depend on the processing

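Of 90 counts of genes under an alternative, 81 stayed within 1.5 times the reported count. Of 516 values of single genes, 496 kept their direction, among them all 105 for tumor cells between the combination and anti-PD1. They also include all 105 for tumor cells between IACS-70654 and vehicle. The genes were chosen by their direction in that contrast, so nothing is read from those values. Between anti-PD1 and vehicle, 1 of 9 genes was lower in tumor cells. The count was 0 at a log2 ratio under -1 (0.719% of all genes) and 2 with each cell weighted equally (5.47%). Without clusters of under 20 cells in a library it was 2 (4.06%). It was 3 of 8 within cluster 1 (9.43%), 2 within cluster 3 (6.90%) and 2 within cluster 5 (6.16%). These counts within clusters can include genes that reached 20 UMIs through the vehicle library. Sparcl1 in cluster 1 had 19 UMIs with anti-PD1 and 85 with vehicle. In cluster 3 the interval of Sparcl1 (-1.18 to 0.04) includes 0. Nothing is read from the counts within clusters. In macrophages, 2 genes in place of 0 were lower between IACS-70654 and vehicle with each cell weighted equally (12.4% of all genes), and 0 in place of 4 were lower between the combination and anti-PD1 at a log2 ratio under -1 (4.26%). In fibroblast-like cells with under 5 UMIs of pericyte markers, Serpine2 turned to 0.10 between IACS-70654 and vehicle and to 4.47 between the combination and anti-PD1, Fgfr1 to -0.42 and -0.10 in that order, and between IACS-70654 and vehicle Hspb1 turned to 0.97 and Sparcl1, from 12 and 4 UMIs, to 0.16. Hspb1 in macrophages between the combination and anti-PD1 turned to 0.46 without the top cell of each library. Of the other single-gene values that changed direction, 9 were between anti-PD1 and vehicle within clusters or under another choice of tumor cells. In c-Kit+ cells with clusters at equal makeup and no TMM scaling, Fgfr1 turned to -0.13, Serpine2 was at -0.25 and Fn1 at 1.13. The cause of these changes was not tested. The mixed-cluster, rare-cluster, equal-weight, pericyte, top-cell, c-Kit+ makeup and single monocyte cluster alternatives were chosen after seeing the data. In marrow, the count of genes called lower was 374 in monocytes (269 to 404 with 1 library left out), 844 in neutrophils (726 to 863) and 1059 in c-Kit+ cells (765 to 1065), and 701 in c-Kit+ cells with DESeq2. With the replicate number as a block the counts were 373, 832 and 1034, and the block changed no call of the 9 genes. Over all tested genes, the deviations of same-numbered libraries from their group means correlated by -0.018 to 0.040. A value over all genes cannot show whether some genes shared an effect of the library number. The doublet caller marked 20 of 13830 cells (0.145%), too few to have worked, and that alternative gave no value, so doublets were not removed. With 1 library per tumor condition, no difference there can be set against the spread between mice, and in small classes counts limit what can be seen.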
